A study of Mus musculus with 12 samples.

Results

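Mitochondria fold and degrade their own proteins with a dedicated set of chaperones and proteases, and 10 of the genes that encode them are described here in C2C12 mouse myotubes exposed to the protonophore BAM15. The genes were chosen by symbol, and all 10 were found among the 15113 genes of the count table. They are the chaperonin genes Hspd1 and Hspe1, the mitochondrial HSP70 gene Hspa9 with its cochaperone gene Dnaja3, the matrix protease genes Lonp1, Clpp and Clpx, the inner membrane protease genes Afg3l2 and Yme1l1, and the intermembrane space protease gene Htra2.

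Nearly all mitochondrial proteins are made in the cytosol and imported unfolded, so the matrix needs HSP70 to pull them in and a chaperonin to fold them. Proteins that fail to fold are unfolded and cut by ATP-dependent proteases, of which LONP1 and CLPXP act in the matrix and the m-AAA and i-AAA proteases on either face of the inner membrane. Raised transcription of these genes is a known response to damage of mitochondrial proteins, and it has been linked to the transcription factors ATF4, ATF5, CHOP (encoded by Ddit3) and HSF1.

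C2C12 cells are mouse myoblasts, kept as a line, that form multinucleated myotubes once serum is lowered. The cells, at passages 2 to 5 by their labels, were described as fully differentiated when they received 20 μM BAM15 dissolved in DMSO or the vehicle for 16 h. BAM15 carries protons across the inner mitochondrial membrane and so uncouples respiration from ATP synthesis. The study's methods give a later range of passages than the labels. Poly(A) RNA was sequenced near its 3′ end with QuantSeq in 6 libraries per condition, and the labels do not say whether these came from separate cultures, so p-values measure only the spread between these libraries.

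Between 13983725 and 18866728 reads per library were counted on genes. All 10 myotube markers were listed in every condition, Myog and Acta1 rose and Ckm and Mymk fell after BAM15, and their summed normalized counts overlapped (376200 to 413145 with vehicle, 366936 to 465916 with BAM15). Markers of undifferentiated or cycling myoblasts were lower in sum, at 2600 to 3481 with BAM15 against 5675 to 6705 with vehicle. Of these 8 markers Pax7, Mki67, Top2a, Ccnb1 and Cdk1 fell and Myf5 rose, and none was at 0. In bulk RNA fewer cells of a type and less RNA per cell cannot be told apart, and the part of this shift in the results below was not tested.

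Hspd1 and Hspe1 lie head to head on chromosome 1 of GRCm38, with 107 bases between the starts of their main annotated transcripts, so a single stretch of sequence lies upstream of both. It is shown because it is the only one of the member promoters searched that holds a heat shock element, the sequence that HSF1 binds. The stretch below is given on the strand of Hspe1 with 6 bases on either side of the element, whose 18 bases are in capitals. It also lies in an exon of an alternative Hspd1 transcript. The 150 bases before the RefSeq starts of Lonp1, Clpp and Clpx are given for comparison, each on the strand of its gene, since these 3 matrix protease genes ranged from a rise of more than 2-fold to no called change. Capitals in these mark a CCAAT box, and no annotated exon overlaps them. The sequences are from RefSeq on GRCm38.p6.
Hspd1-Hspe1, chr1:55088053-55088082: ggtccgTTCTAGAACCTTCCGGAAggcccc
Lonp1, chr17:56626904-56627053: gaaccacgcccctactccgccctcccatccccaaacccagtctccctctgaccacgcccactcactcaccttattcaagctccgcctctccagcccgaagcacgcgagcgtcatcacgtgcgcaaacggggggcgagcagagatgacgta
Clpp, chr17:56990114-56990263: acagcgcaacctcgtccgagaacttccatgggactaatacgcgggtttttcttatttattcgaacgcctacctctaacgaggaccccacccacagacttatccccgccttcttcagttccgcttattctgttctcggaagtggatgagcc
Clpx, chr9:65294110-65294259: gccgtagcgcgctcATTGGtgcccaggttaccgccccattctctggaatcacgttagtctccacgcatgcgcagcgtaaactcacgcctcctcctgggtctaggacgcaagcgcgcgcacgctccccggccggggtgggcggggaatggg

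RefSeq promoters were found for 7 of the 10 members, in 8 entries, because Hspd1 has a pair of starts. The 250 bases before each start were searched on both strands for 5 motifs. The heat shock element of 3 units, GAANNTTCNNGAA or TTCNNGAANNTTC, was matched in the shared Hspd1 and Hspe1 stretch by a pair of overlapping copies, and it occurs in 0.466% of all 32851 promoters of the table. The core of the amino acid response element, TGATGCAA, the cyclic AMP response palindrome TGACGTCA and the NRF1 palindrome were found in 0 of the 8 entries, against 0.791%, 1.55% and 0.782% of all promoters. The CCAAT box was found for Clpx, Dnaja3 and Yme1l1 and occurs in 33.8% of all promoters. These matches describe letters only, and binding was not measured.

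BAM15 raised the RNA of most of these genes. By edgeR's quasi-likelihood test at an adjusted p-value below 0.01, 7 of the 10 members were higher after BAM15 and 0 were lower, where 22% of the 12730 tested genes were higher and 20.3% were lower. With edgeR at an unadjusted p-value below 0.05 the number lower was also 0. It was 0 with DESeq2 and with limma-voom at an adjusted p-value below 0.01. Hspd1, Hspe1, Hspa9, Lonp1 and Dnaja3 also changed more than 2-fold with a base mean above 50 normalized counts, which 3.7% of the tested genes did upward and 3.58% downward. In 6 members every BAM15 library lay above every vehicle library, as in 17.1% of all tested genes, and in 0 members below, against 17%. The median log2 fold change was 0.83 over the members and 0.02 over all tested genes. All 10 members passed the filter on low counts. Their reads together made up 0.168 to 0.211% of a BAM15 library and 0.0891 to 0.0933% of a vehicle library. Hspa9 gave more of these reads than any other member in every library, so the share leans on it.

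**Figure D1:**
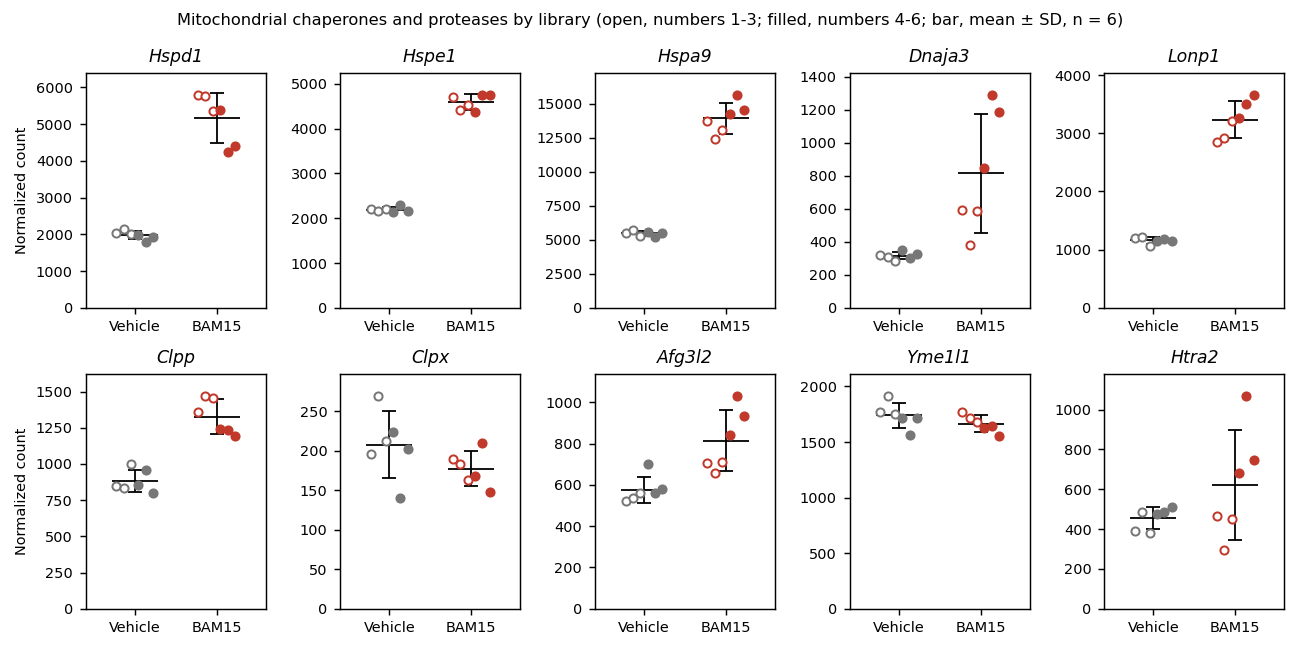
Normalized counts (TMM-scaled reads, vertical axes from 0) of the 10 members in the 6 vehicle and 6 BAM15 libraries, as 1 point per library (open, numbers 1 to 3; filled, numbers 4 to 6) with the mean and SD as bars. The groups do not overlap for Hspd1, Hspe1, Hspa9, Dnaja3, Lonp1 and Clpp, and the BAM15 points of Dnaja3, Afg3l2 and Htra2 spread upward in numbers 4 to 6.

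Both chaperonin genes were higher after BAM15. Hspd1 encodes HSP60, the barrel in which imported proteins fold, and Hspe1 encodes HSP10, its lid. The normalized counts of Hspd1 (chr1:55077835-55088243, minus strand) ranged from 1798 through a median of 2004 to 2143 with vehicle and from 4236 through 5382 to 5804 with BAM15. All BAM15 libraries lay far above the vehicle libraries, with the lowest values in BAM15 libraries 5 and 6. The mean was 1984 ± 115 with vehicle and 5162 ± 683 with BAM15 (SD, n = 6 each), a 2.60-fold rise (log2 fold change 1.38 ± 0.08 SE, adjusted p = 2.56e-09 by edgeR).

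Hspe1 (chr1:55088132-55091307, plus strand) had normalized counts of 2134, 2179.8 and 2294 as lowest, median and highest with vehicle, and of 4381, 4619.6 and 4762 with BAM15. Libraries of a condition were close together and the groups stood apart. The rise was 2.10-fold (log2 fold change 1.07 ± 0.05 SE, adjusted p = 4.83e-11 by edgeR), from 2191 ± 56.3 to 4592 ± 174 (SD, n = 6 each). Near its 3′ end, in the final 400 bases of the transcript, 59.8% of 50-base windows also occur in other annotated genes, namely 4 Hspe1 pseudogenes and AC117239.2. With 75-base windows, tried after the values were seen because the study's methods give longer reads than the 50 bp of the labels, the share was 41.7%. None of these genes is listed in the count table, and how the authors' counting treated such reads is not known.

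Hspa9 encodes mortalin, the HSP70 of the matrix, which draws precursors through the import channel and helps them fold. It was the most read member in every library, and since a QuantSeq count does not scale with transcript length these levels are reads per transcript end. Hspa9 (chromosome 18, 34937414 to 34954357) ranged from 5202 through 5517 to 5750.1 normalized counts with vehicle and from 12451 through 13976 to 15692 with BAM15. The lowest BAM15 library was number 2 and the highest number 5, and none overlapped the vehicle libraries. The rise was 2.55-fold (log2 fold change 1.35 ± 0.06 SE, adjusted p = 8.17e-11 by edgeR), from a mean of 5475 ± 199 to 13955 ± 1147 (SD, n = 6 each).

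Dnaja3 encodes TID1, a J-domain protein that stimulates the ATPase of mortalin. Its normalized counts (chr16:4639989-4707695) were 284, 315 and 347 as lowest, median and highest with vehicle. With BAM15 they were 595, 382 and 588 in libraries 1 to 3 and 847, 1292 and 1186 in libraries 4 to 6. Every BAM15 library was above every vehicle library, and relative to the mean the treated libraries spread wider than for Hspd1, Hspe1 or Hspa9. The rise over all libraries was 2.59-fold (log2 fold change 1.37 ± 0.26 SE, adjusted p = 5.89e-04 by edgeR), from a mean of 315 ± 22 to 815 ± 361 (SD, n = 6 each). Within numbers 1 to 3 the log2 fold change was 0.78 and within numbers 4 to 6 it was 1.76.

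Over all 12 libraries Lonp1 had the largest fitted change of the 10 members, whereas Hspd1 exceeded it within numbers 1 to 3 (1.45 against 1.37 on the log2 scale) and Dnaja3 within numbers 4 to 6 (1.76 against 1.58) and without BAM15 library 2 (1.51 against 1.505). Lonp1 encodes the matrix LON protease, which carries its ATPase and its protease on a single polypeptide, degrades damaged proteins and also binds mitochondrial DNA. Lonp1 (chr17:56614297-56626887, minus strand) ranged from 1062 through 1167 to 1212 normalized counts with vehicle, and from 2846 through 3238 to 3664 with BAM15. The groups were far apart, and the highest BAM15 values were in libraries 5 and 6, where Hspd1 was lowest. Its counts rose 2.79-fold (log2 fold change 1.48 ± 0.07 SE, adjusted p = 1.08e-10 by edgeR), from a mean of 1158 ± 54.8 to 3234 ± 317 (SD, n = 6 each).

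The subunits of the other matrix protease did not move together. Clpp encodes the peptidase chamber and Clpx the ATPase ring that unfolds substrates and feeds them in. Clpp (chr17:56990305-56996188) ranged from 799 through 852 to 999 normalized counts with vehicle and from 1195 through 1302 to 1472.5 with BAM15. Its groups did not overlap, and BAM15 libraries 1 to 3 were all above libraries 4 to 6. The rise was 1.5-fold (log2 fold change 0.59 ± 0.07 SE, adjusted p = 7.84e-06 by edgeR).

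Clpx (chr9:65294260-65330658) was the least read member, at 140.2, 208 and 270.2 normalized counts as lowest, median and highest with vehicle and 148, 176 and 210.3 with BAM15. The groups overlapped, and vehicle library 5 held the lowest value of all. The log2 fold change was −0.22 ± 0.13 SE (adjusted p = 0.168 by edgeR), so no change was called, and at this depth it is the member with the fewest reads behind its value.

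Of the inner membrane proteases, Afg3l2 was higher and Yme1l1 was not called. AFG3L2 forms the m-AAA protease, which faces the matrix, alone or with paraplegin, and YME1L1 forms the i-AAA protease, which faces the intermembrane space. Afg3l2 (chromosome 18, 67404764 to 67449172) had 523, 559 and 701 normalized counts as lowest, median and highest with vehicle and 660.1, 776 and 1034 with BAM15. The groups met because vehicle library 4, at 701, exceeded BAM15 library 2. The rise was 1.41-fold (log2 fold change 0.50 ± 0.11 SE, adjusted p = 0.00145 by edgeR).

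Yme1l1 (chr2:23156369-23199260) stayed in one range, at 1567, 1734 and 1919 normalized counts with vehicle and 1557, 1663 and 1772 with BAM15. The BAM15 libraries lay inside the vehicle range apart from number 6, just below it. The log2 fold change was −0.06 ± 0.05 SE (adjusted p = 0.353 by edgeR).

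Htra2 encodes a serine protease of the intermembrane space that can be released into the cytosol in apoptosis. It was listed at 382, 479 and 512 normalized counts as lowest, median and highest with vehicle. With BAM15 it had 465, 296 and 449 in libraries 1 to 3 and 684, 1070.3 and 748 in libraries 4 to 6. The first of these sets lay within or below the vehicle range and the second wholly above it. Over all libraries the log2 fold change was 0.45 ± 0.25 SE and was not called (adjusted p = 0.154 by edgeR). With numbers 1 to 3 alone the value was −0.05 (adjusted p = 0.827 by edgeR), and with numbers 4 to 6 alone 0.76 (adjusted p = 0.00201 by edgeR). This split was chosen with the difference between these libraries already known, so the values within it are a description. The last 400 bases of Htra2 (chr6:83051266-83055273, minus strand) are covered by exons of Loxl3 on the opposite strand, and the strand used for counting is not given in the sources used here. Loxl3 itself went from 269.8 ± 24.5 to 138 ± 32.4 normalized counts (SD, n = 6 each).

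**Figure D2:**
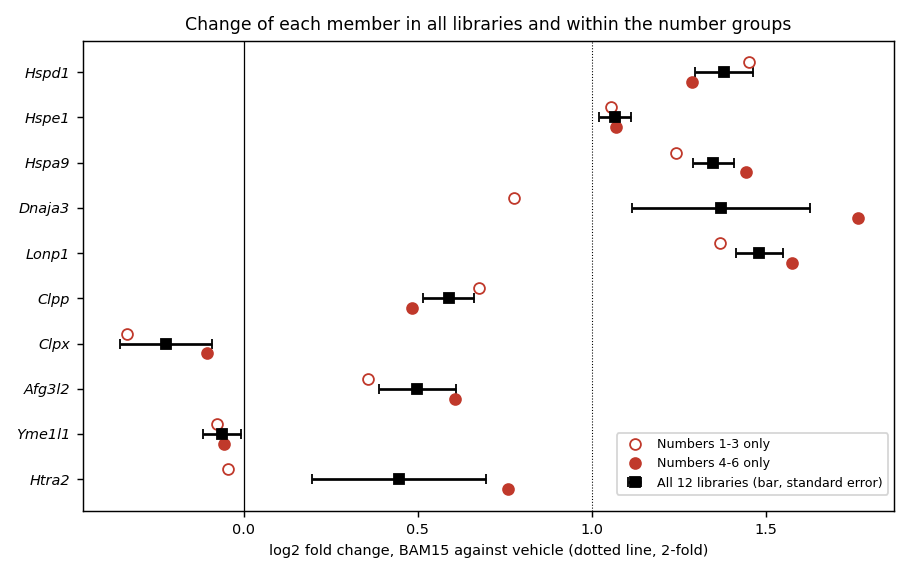
Log2 fold change of each member after BAM15 against vehicle, with squares for all 12 libraries (bars, standard error) and circles for libraries numbered 1 to 3 (open) or 4 to 6 (filled) alone. Lonp1, Hspd1, Dnaja3, Hspa9 and Hspe1 lie right of the dotted 2-fold line, Clpx and Yme1l1 just left of 0, and the circles are farthest apart for Dnaja3 (0.78 and 1.76) and Htra2 (−0.05 and 0.76).

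Across the transcriptome, treated libraries 4 to 6 stood apart from treated libraries 1 to 3, and the labels name no batch. This grouping was adopted because the same libraries were already known to differ, so the values between them are a description and not a test. With edgeR at an adjusted p-value below 0.01, 13.5% of tested genes were higher and 10.7% were lower in BAM15 libraries 4 to 6 than in 1 to 3, whereas 0 genes differed between the vehicle libraries with these numbers, 696 of them at an unadjusted p-value below 0.05. The members with the widest gaps upward were Dnaja3, Htra2 and Afg3l2. Mean normalized counts went from 522 to 1108 for Dnaja3 (log2 difference 1.08), from 403 to 834 for Htra2 (1.05) and from 693 to 937 for Afg3l2 (0.44). Hspd1 had the opposite sign, with a mean of 5649 in libraries 1 to 3 and 4675 in libraries 4 to 6 (log2 difference −0.27).

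Whether the effect of BAM15 itself differed between the number groups was tested with an interaction term, on the same grouping and so not independently of it. In this test 0% of tested genes were called as positive and 0% as negative at an adjusted p-value below 0.01 with edgeR, while 339 genes had an adjusted p-value below 0.05 and 3313 an unadjusted one below 0.05. The members closest to the threshold were Dnaja3, with a difference of 0.99 on the log2 scale (adjusted p = 0.0513), and Htra2, with 0.81 (adjusted p = 0.0918). Dnaja3 passed when BAM15 library 4 was left out (1.15, adjusted p = 0.00139).

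Pairs of genes were next compared as ratios of their counts within each library, which do not depend on how libraries are scaled. Most pairs encode partners in 1 machine, while Lonp1/Clpp and Yme1l1/Oma1 set genes of separate proteases side by side. With 7 ratios and 6 libraries per condition, the exact two-sided permutation test cannot give a p-value below 0.00216. Relative to Clpp, Lonp1 rose and Clpx fell. The Lonp1/Clpp ratio went from 1.32 to 2.44, with log2 ratios of 0.09 to 0.54 in vehicle libraries and 0.99 to 1.62 in BAM15 libraries (difference 0.89, adjusted p = 0.00758 by the exact permutation test). The Clpx/Clpp ratio went from 0.232 to 0.133 (log2 difference −0.80, adjusted p = 0.00758 by the exact permutation test), and 1 vehicle library, number 5, fell in the BAM15 range.

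Hspa9 rose relative to Grpel1, whose protein exchanges the nucleotide of mortalin, and no difference was called against Dnaja3. The Hspa9/Grpel1 ratio went from 5.63 to 12.1, without overlap between the groups (log2 difference 1.11, adjusted p = 0.00758 by the exact permutation test). Exons of Tada2b on the opposite strand cover the last 400 bases of Grpel1, and the log2 fold change of Tada2b was −0.01 (adjusted p = 0.896 by edgeR). The Hspa9/Dnaja3 ratio was 17.4 with vehicle and 18.6 with BAM15 (log2 difference 0.10, adjusted p = 0.843 by the exact permutation test), but its log2 values spanned 3.60 to 5.02 in BAM15 libraries and only 4.00 to 4.22 in vehicle libraries.

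For the chaperonin pair the difference was smaller and its call depended on single libraries. The Hspd1/Hspe1 ratio went from 0.904 to 1.12 (log2 difference 0.30, adjusted p = 0.0485 by the exact permutation test). BAM15 libraries 5 and 6 lay in the vehicle range, and the call was lost when BAM15 library 1, 2, 3 or 4 or vehicle library 1, 3, 5 or 6 was left out, with an adjusted p-value of up to 0.0909. In the inner membrane, Afg3l2 rose relative to Spg7, which encodes paraplegin (log2 difference 0.65, adjusted p = 0.00758 by the exact permutation test), with overlap. That difference was 0.39 within numbers 1 to 3 and 0.91 within numbers 4 to 6. Yme1l1 and Oma1, whose proteins both cut the fusion protein OPA1, had a ratio of 7.04 with vehicle and with BAM15 (log2 difference 0.0005, adjusted p = 0.996 by the exact permutation test).

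**Figure D3:**
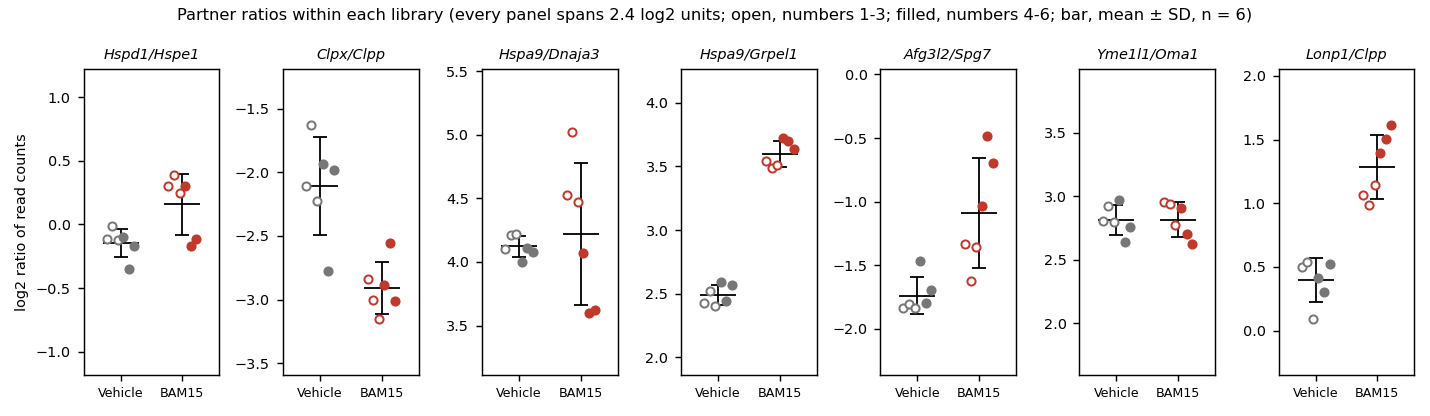
Log2 ratio of the read counts of partner genes within each library, as 1 point per library (open, numbers 1 to 3; filled, numbers 4 to 6) with the mean and SD of the 6 libraries of a condition, every panel spanning the same number of log2 units. Hspa9/Grpel1 and Lonp1/Clpp separate the conditions, and the BAM15 points of Hspa9/Dnaja3 spread from 3.60 to 5.02.

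The other genes of mitochondrial protein quality control were mostly not called. Of 27 such genes, 8 were higher, 1 was lower and 18 were not called by edgeR at an adjusted p-value below 0.01 (22% and 20.3% of all tested genes were higher and lower), and their median log2 fold change was 0.17. Among the 9 other chaperones and cochaperones 4 were higher. Hscb, a J-domain protein that serves iron-sulfur cluster assembly, went from 108 ± 16.1 to 238 ± 79.9 normalized counts (log2 fold change 1.13, adjusted p = 1.67e-04 by edgeR) and was the 1 gene of the 27 past the 2-fold threshold. It is not past that threshold within numbers 1 to 3, with a log2 fold change of 0.91, and the count was 0 without BAM15 library 5. Grpel1 rose by 0.24 on the log2 scale (adjusted p = 9.05e-04 by edgeR).

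Of the 10 other membrane proteases and scaffold genes 2 were higher and 1 was lower, beside 22% and 20.3% of all tested genes. Parl, a rhomboid protease that cuts PINK1, had the largest rise (log2 fold change 0.35, adjusted p = 1.47e-04 by edgeR) and Lactb, a serine protease-like protein of the intermembrane space, fell by 0.41 on the log2 scale (adjusted p = 3.21e-04 by edgeR). Spg7 (−0.16, adjusted p = 0.083) and Oma1 (−0.06, adjusted p = 0.484), used in the ratios above, were not called by edgeR. Of the 8 processing peptidases 2 were higher and 0 were lower, with the share higher close to that of all tested genes. The larger of these rises was in Immp2l, which removes sorting signals in the inner membrane (log2 fold change 0.78, adjusted p = 4.33e-04 by edgeR).

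Of 10 regulators that have been tied to this response, 7 were higher and 1 was lower by edgeR, beside 22% and 20.3% of all tested genes. Ddit3 rose most, from 799 ± 70.3 to 15889 ± 2993 normalized counts (SD, n = 6 each, log2 fold change 4.31, adjusted p = 9.44e-13). Atf4 rose by 2.10, Cebpb, which partners CHOP, by 1.65 and Atf5 by 1.44 on the log2 scale. Every BAM15 library lay above every vehicle library in 7 of the 10 regulators and below in 1. Over all tested genes these shares were 17.1% and 17%. Ddit3, Atf4, Cebpb and Atf5 were among the 7. Ubl5, a ubiquitin-like protein tied to the response in worms, was lower (log2 fold change −0.33, adjusted p = 3.07e-04). Hsf1, named here after its values were seen because of the heat shock element above, had a log2 fold change of 0.71 that was not called (adjusted p = 0.0143 by edgeR). For Hsf1 the value was 0.21 with numbers 1 to 3 alone (adjusted p = 0.0865 by edgeR) and 1.04 with numbers 4 to 6 alone (adjusted p = 1.2e-04 by edgeR). The number groups were adopted because these libraries were already known to differ, so the Hsf1 values within them are a description.

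Chaperones and proteases of the same families outside mitochondria were examined for comparison. Of the 21 counterparts listed, 11 were higher and 1 was lower by edgeR, beside 22% and 20.3% of all tested genes, with a median log2 fold change of 0.24. The cytosolic chaperonin, the structural relative of HSP60, had 3 of 8 subunit genes higher and a median of 0.15, with the largest rise in Cct4 (0.44, adjusted p = 0.00779). Among 7 other HSP70 genes 4 were higher: the heat-inducible Hspa1a and Hspa1b rose by 6.15 and 5.21 on the log2 scale, and Hspa5, which encodes the endoplasmic reticulum chaperone BiP, by 1.97. All 3 HSP90 genes rose, Hsp90aa1 most (0.96). In the family of Htra2, Htra1 rose by 1.26 and Htra3 was lower (log2 fold change −1.01), and the peroxisomal LON gene Lonp2 had a value of 0.01 (adjusted p = 0.898 by edgeR).

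**Figure D4:**
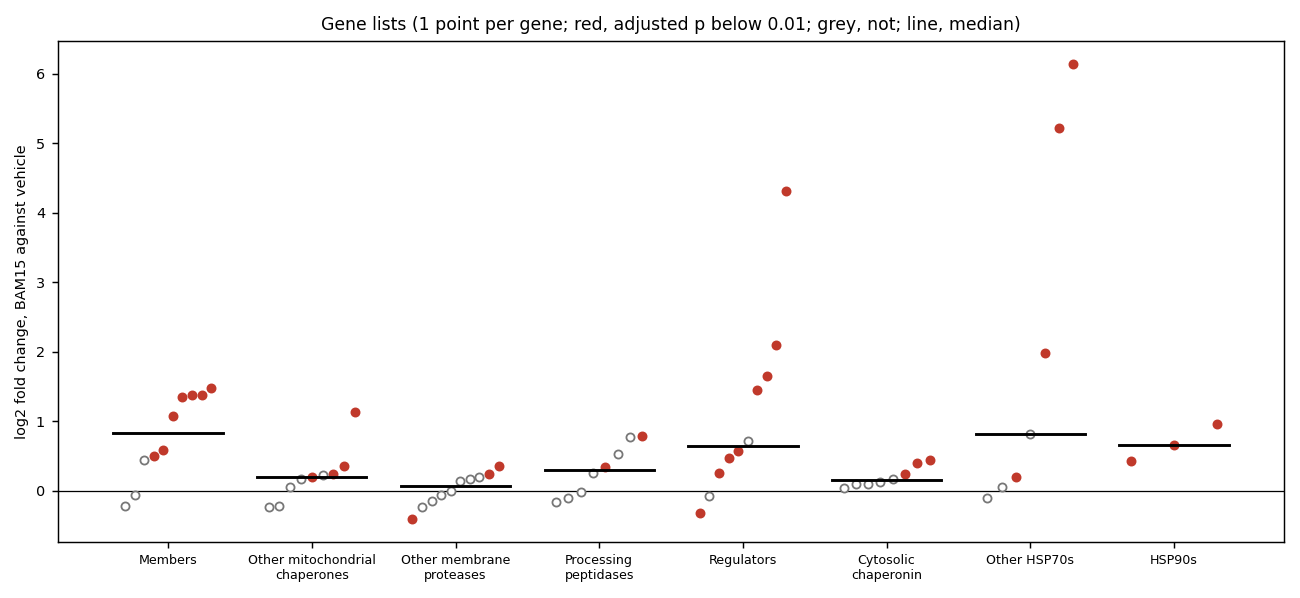
Log2 fold change after BAM15 against vehicle of every tested gene in 8 lists, as 1 point per gene (red, adjusted p-value below 0.01 by edgeR; grey, not) with the median as a line. The median of the members is 0.83, that of the cytosolic chaperonin 0.15, and the highest points are Hspa1a (6.15), Hspa1b (5.21) and Ddit3 (4.31).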

How the data were processed

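C2C12 myotubes were sequenced in 6 BAM15 and 6 vehicle libraries, grouped by their GEO labels. The authors deposited read counts per Ensembl gene, without normalization, and a table of normalized signal, which is those counts divided by a size factor per library and served for 1 alternative. Processing notes name GRCm38 and DESeq2 1.22.2. Forward reads were aligned with BlueBee software, and the aligner inside it and the counting strand are not given in the sources used here. The deposited tables hold 11 further columns that were not used here.

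The 10 members and all gene lists were chosen with earlier results of these data known. For 2293 genes without a symbol, 2260 symbols came from GENCODE. Genes with low counts were removed (filterByExpr, 2383 genes), libraries were scaled by TMM (factors 0.932 to 1.04), and a robust quasi-likelihood model was fitted in R 4.3.3 with edgeR 4.0.16. Benjamini-Hochberg adjustment ran over the 12730 tested genes. A gene was called at an adjusted p-value below 0.01, and where stated also at a base mean above 50 and more than 2-fold. Normalized counts are TMM-scaled reads at the mean library size. The tests were checked on simulated data. Ratios used counts without a pseudocount, an exact permutation test, adjustment over the 7 ratios and a threshold of 0.05 (Python 3.11.15, figures with matplotlib 3.10.9). For limma on the deposited signal a pseudocount of 1 was added. Positions are from GENCODE M21 on GRCm38.

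Named genes are all members, the ratio partners and, of each other list, those past the 3 thresholds and the largest called rise and fall. For Hspd1 and Lonp1 the 3 genes most like them were also named. Outside this rule, Loxl3, Tada2b, Lonp2, Hsf1, Pax7, Myog and Ckm were named after their values were seen. Alternatives were DESeq2 1.42.0, limma-voom (limma 3.58.1), limma on the deposited signal, other scalings and filters, no robust moderation, blocks for the library number or number group, each number group alone, an adjusted p-value below 0.05 and each library left out.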

Additional observations from a re-analysis of the deposited data

Results flagged for a closer look

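In 3 of 40 groups of 6 libraries checked, 1 library stood apart from the other 5 by more than the Dixon criterion allows (a gap above 0.625 of the range), and chance gives this in about 1 in 20 groups. All were vehicle library 4. It had the highest normalized count of Afg3l2 among the vehicle libraries, 701.5, with the next at 578. It had the lowest count of Oma1, 219.8, with the next at 252. It also had the highest log2 ratio of Afg3l2 to Spg7, −1.47, with the next at −1.70. That ratio holds the same Afg3l2 count, so its flag is not separate from that of Afg3l2. Ratios reuse the counts of the genes, so the 40 groups are not independent of one another. Without this library, neither the rise of Afg3l2 nor that of its ratio to Spg7 lost its call.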

How the results depend on the processing

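Across 24 alternatives for each member, 238 of 240 log2 fold changes kept their direction and their side of the threshold. The exceptions were Htra2 within numbers 1 to 3 (−0.046, the sign reversed) and within numbers 4 to 6 (0.76, then called). The number of members called higher stayed between 7 and 8, and the member median between 0.73 and 0.91. The number of members past the 3 thresholds was 4 within numbers 1 to 3 and 5 in every other alternative. Of the 27 related genes, the number higher fell from 8 to 5 with library size only, 5 with limma on the deposited signal and 4 within numbers 4 to 6. The number lower was 2 with DESeq2, with a number group block and within either number group, 3 with limma on the deposited signal, 4 with library size only, and 1 to 2 when each library was left out. Of these related genes, the number past the 3 thresholds was 0 within numbers 1 to 3 and 0 to 1 when each library was left out. In the interaction test 0 to 1 members were called when each library was left out (1 without BAM15 library 4), and 3 in the contrast of BAM15 libraries alone, which was added after the values were seen. Interaction values with each library left out changed sign near 0, from −0.0005 (without BAM15 library 5 or vehicle library 4) to 0.0585 for Hspe1 and from −0.0178 (without vehicle library 5, and −0.0136 without 2) to 0.0497 for Yme1l1. Same-numbered libraries deviated together with correlations from −0.08 to 0.31, and 2 of 6 matched best with their own number, so the numbers were not taken as pairs. With the replicate block in edgeR, 7 members were again higher. The replicate block was also run as an exact sign-flip test of the ratios, whose smallest possible p-value is larger. Differences stayed 0.30 for Hspd1/Hspe1, 1.11 for Hspa9/Grpel1, 0.65 for Afg3l2/Spg7 and 0.89 for Lonp1/Clpp (each adjusted p = 0.0547 by the sign-flip test). For Clpx/Clpp the difference stayed −0.80 (adjusted p = 0.0875 by the sign-flip test), and none was past 0.05. The ratios at 0.0547 had the smallest p-value this test can give, so missing 0.05 says little about them. Within numbers 1 to 3 and 4 to 6 the Clpx/Clpp difference was −1.01 and −0.59, where 3 libraries against 3 allow no p-value below 0.1. With each library left out, the Hspd1/Hspe1 difference ranged from 0.26 to 0.37, that of Hspa9/Dnaja3 from −0.0631 (without BAM15 library 2) to 0.221 and that of Yme1l1/Oma1 from −0.0346 to 0.0382. Within numbers 1 to 3 and 4 to 6 alone, Hspa9/Dnaja3 stood at 0.50 and −0.30. Depth limits Clpx most among the members.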

Other observations

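With condition means removed, the log2 CPM of Hspd1 followed over the 12 libraries most closely those of Cetn3, Ppp2r5a and Srpk1 among 10469 genes (Pearson r of 0.99, 0.99 and 0.98). For its neighbour Hspe1 r was −0.65, and for Dnaja3 −0.82. Lonp1 was followed most closely by Abhd6, 2010111I01Rik and Vmp1 (r of 0.97, 0.94 and 0.94), and for Dnaja3 r was 0.80. These values are descriptions: the points share their libraries, and BAM15 libraries 4 to 6 lie apart from 1 to 3.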
